A study of Mus musculus with 146 samples.

Results

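The cytosolic ribosomal protein genes were taken as the protein-coding genes of the variance-stabilised expression table whose mouse symbol is Rpl or Rps with a number (with a, x or l after it where present), together with Rpsa, Rplp0, Rplp1 and Rplp2. The rule gave 76 of the 10893 genes of that table, 45 of the large ribosomal subunit and 31 of the small subunit. Of the other protein-coding genes with such a symbol, Rpl29, Rpl3l, Rpl39l and Rpl10l were in the count table of 22721 genes but not in the variance-stabilised table. Their mean CPM, the count scaled to the total count of the library in the usual unit, was 0.513 for Rpl29, 0.326 for Rpl3l, 0.0363 for Rpl39l and 0 for Rpl10l.

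Polyadenylated RNA was sequenced from bone marrow-derived macrophages of 146 outbred CFW mice of the stock Crl:CFW(SW)-US_P08 at 16 weeks of age, with 1 library per mouse. L929 cells, whose conditioned medium supplied the growth factor that turns marrow progenitors into macrophages, supported the cultures over 5 days, and no further treatment was given. The labels give 86 female and 60 male mice, 7 library plates of 6 to 24 libraries, 7 lanes and 28 collection dates. They give no treatment, genotype or other group. Since each library is a separate mouse, the spread between libraries includes the differences between animals, cultures and library preparations.

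Library totals ran from 14483441 to 120926429 counts. All 11 macrophage markers were in the variance-stabilised table, and Csf1r, the receptor of the macrophage growth factor, had a mean of 1707 CPM (lowest 1352, highest 2093). The summed level was 12142 to 25932 CPM for the macrophage markers, 76.2 to 1772 for 10 granulocyte precursor markers and 15.2 to 126 for 6 dendritic cell markers. The 8 lymphocyte markers summed to 0.925 to 11.5 CPM, the 6 erythroid markers to 0 to 1.27 and the 5 stromal markers to 0 to 67.4, and no marker was at 0 in every library. In 6 libraries the summed Y-linked counts went against the labelled sex, so results by sex are given with and without them.

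Ribosomes hold 1 copy of nearly every ribosomal protein, so the cell needs the proteins in near-equal amounts. In mammals their synthesis is known to be controlled largely at translation: the messages begin with a short run of pyrimidines (a 5' terminal oligopyrimidine, or TOP, tract) through which growth signalling by mTOR controls their use. The genes are short, highly expressed and intron-containing. They have left many processed pseudogenes, which are intronless copies made by reverse transcription, and a read from such a message can match the gene and its copies equally well.

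How close the copies are is shown by 60-base stretches of coding sequence, set beside the same stretch of a copy. Each was read from the reference transcripts and is the stretch with the most differing bases, which are in capitals. Rps7, a small subunit protein, and Gm6472, a transcribed processed pseudogene at chrX:152909505-152910155, differ at 3 of 582 coding bases, and coding bases 7 to 66 hold 2 of these:
Rps7: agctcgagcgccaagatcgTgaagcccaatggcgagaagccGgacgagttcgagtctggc
Gm6472: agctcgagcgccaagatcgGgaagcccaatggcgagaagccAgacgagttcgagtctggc
Rpl11, a large subunit protein that also binds the p53 regulator MDM2, and Gm10288, a processed pseudogene at chr3:146838811-146839347, differ at 1 of 534 coding bases, shown within coding bases 56 to 115:
Rpl11: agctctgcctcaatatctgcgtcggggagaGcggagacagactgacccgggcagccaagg
Gm10288: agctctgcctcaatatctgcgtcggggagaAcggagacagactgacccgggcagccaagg
Rpl7a, a large subunit protein, and Rpl7a-ps3, at chr15:36308149-36308944, differ by 12 substitutions over 798 coding bases, 3 of them within coding bases 479 to 538:
Rpl7a: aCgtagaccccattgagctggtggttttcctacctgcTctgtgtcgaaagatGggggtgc
Rpl7a-ps3: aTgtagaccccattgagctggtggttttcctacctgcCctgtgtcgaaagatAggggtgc
By contrast Rps27 and Rps27l, a pair of protein-coding genes for related small subunit proteins, are 69.8% identical over the 252 coding bases of Rps27. The rest are 55 substitutions and 21 bases in gaps of the alignment. Coding bases 10 to 69 differ at 19 positions:
Rps27: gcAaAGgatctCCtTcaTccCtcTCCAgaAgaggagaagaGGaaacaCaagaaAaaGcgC
Rps27l: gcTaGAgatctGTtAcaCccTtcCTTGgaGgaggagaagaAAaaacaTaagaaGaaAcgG

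Together the 76 genes held 0.728% ± 0.0973 (SD, n = 146) of the counts of a library, with a lowest share of 0.574% and a highest of 1.01%. Levels between genes were compared as RPKM, the CPM divided by the exon length in kilobases. The mean RPKM of the 76 genes spanned a 1546-fold range, with a median of 10.5, or 17.6 with the length of the coding transcript in place of the exon union. Of the 21 single levels compared under both lengths, 18 moved by more than their SD. A mean of at least 100 RPKM was found in 14 genes, and 4 genes had a mean under 1 RPKM.

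The highest were Rplp1, an acidic protein of the stalk of the large subunit, at 484 ± 63 RPKM (SD, n = 146), and the large subunit proteins Rpl8 at 444 ± 44.4 and Rpl4 at 422 ± 59.5. Next came Rps15 at 318 ± 49.7 and Rpl41, which encodes a very short protein, at 308 ± 45.6. Rpl32, also among the 8 highest, was at 266 ± 48.2. Neighbours among those named lay within 1 SD of each other, apart from the step from Rpl4 to Rps15. The lowest were Rps13 at 0.313 ± 0.161, Rps27 at 0.512 ± 0.189, Rpl34 at 0.941 ± 0.152 and Rpl23a at 0.981 ± 0.284 RPKM. Above them stood Rps18 at 1.02 ± 0.180, Rpl11 at 1.13 ± 0.682, Rpl24 at 1.22 ± 0.443 and Rpl35a at 1.31 ± 1.25 RPKM. Rps13 and Rps27 lay below Rpl34 by more than the SD of either, and the next 6 differed from their neighbours by less than 1 SD. Rps27l, the relative of Rps27, was at 95.8 ± 14.3 RPKM, and its lowest library (67.5) lay above the highest library of Rps27 (1.07).

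**Figure D1:**
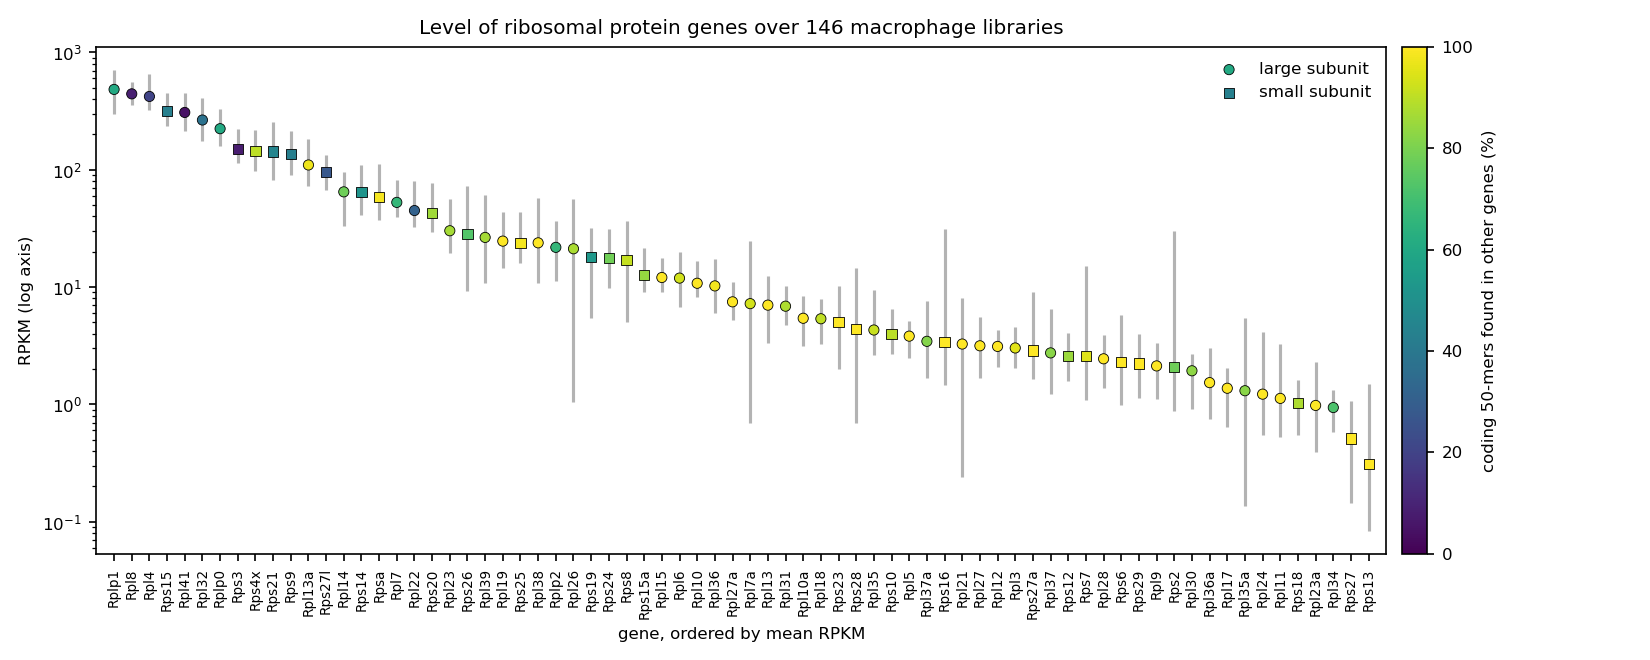
Mean RPKM (log axis) of the ribosomal protein genes reported by name, ordered by level; grey lines run from the lowest to the highest of 146 libraries, circles are large and squares small subunit genes, and colour is the percent of coding 50-mers found in other annotated genes. The genes with few shared 50-mers stand at the left, and Rpl26, Rpl7a, Rps16, Rpl21, Rps2 and Rpl35a have the long grey lines.

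The order went with how much of each gene can be told apart from other genes. All 50-base words of the coding sequence were looked up in the transcripts of every other annotated gene. In 27 members every coding 50-mer was found elsewhere; their median mean level was 3.16 RPKM. In the 12 members with under 50% of coding 50-mers elsewhere, the median was 274 RPKM and the lowest 44.9 (Rpl22). Rpl41 shared 4.49% and Rpl8 8.73%, and both were among the 8 highest; Rps13, Rps27, Rpl23a, Rpl11 and Rpl24 shared 100% and were among the 8 lowest. Across the 76 genes, which are not independent replicates, Spearman's rho between level and shared coding percent was -0.63, and -0.68 with the length of the coding transcript in place of the exon union. The value of a highly shared member is the count given to that locus, and whether it equals the level of the message was not tested.

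Counts given to the copies bear on this directly. The annotation holds 997 pseudogenes that share a coding 50-mer with a member. Of these, 54, copies of 25 members, were in the count table. Counts of the others were not available here, so a member without a counted copy may still share reads with copies. These 54 copies together held 2544 ± 351 CPM (SD, n = 146), beside 7279 ± 973 CPM for the 76 members. For 12 members the copies held more counts than the gene. Per length, the leading copy stood above the gene in 14 of the 25 members. The length used for the gene was the exon union, which can be longer than the coding transcript, and the count was not repeated with the latter. In Rps18 the copy Rps18-ps3 had fewer counts (0.758 against 2.50 CPM) but more per length (1.66 against 1.02 RPKM).

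The largest was Gm10275, a copy of Rpl12 at chr10:29698746-29699380 that is identical to it over all 495 coding bases. It had 451 ± 67.2 CPM, whereas Rpl12 (ENSMUSG00000038900, a large subunit stalk-base protein) had 11.2 CPM, with a lowest of 7.48 and a highest of 15.6. Per length this was 711 RPKM for Gm10275 and 3.12 RPKM for Rpl12. Gm7536, identical to Rpl27a over 444 coding bases, had 298 ± 45.8 CPM beside 20.8 for Rpl27a. Of the 3 copies with sequences shown above, 2 held more counts than the gene: Gm6472 had 318 ± 54.5 CPM beside 5.18 for Rps7, and Gm10288 had 287 ± 35.6 CPM beside 3.04 for Rpl11. Rpl23a-ps3, with 1 substitution in 468 coding bases, had 104 ± 18.9 CPM beside 0.831 for Rpl23a. In each of these 5 pairs the lowest library of the copy lay above the highest library of the gene.

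Copies did not always hold the larger part. Rplp0, the base of the stalk, had 372 CPM and its copy Gm8730 had 293 ± 44.1, and Rpsa, which is also known as a laminin receptor, had 187 CPM beside 213 ± 42.5 for Rpsa-ps10. Rpl13a had 232 CPM and Rpl13a-ps1 28.9. Rpl7a-ps3, the third copy shown above, had 2.54 ± 1.81 CPM beside 12.9 for Rpl7a, or 3.19 against 7.23 RPKM. How multiply mapped and overlapping reads were counted is not given in the sources used here, so the split between a gene and its copies cannot be undone from these counts.

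**Figure D2:**
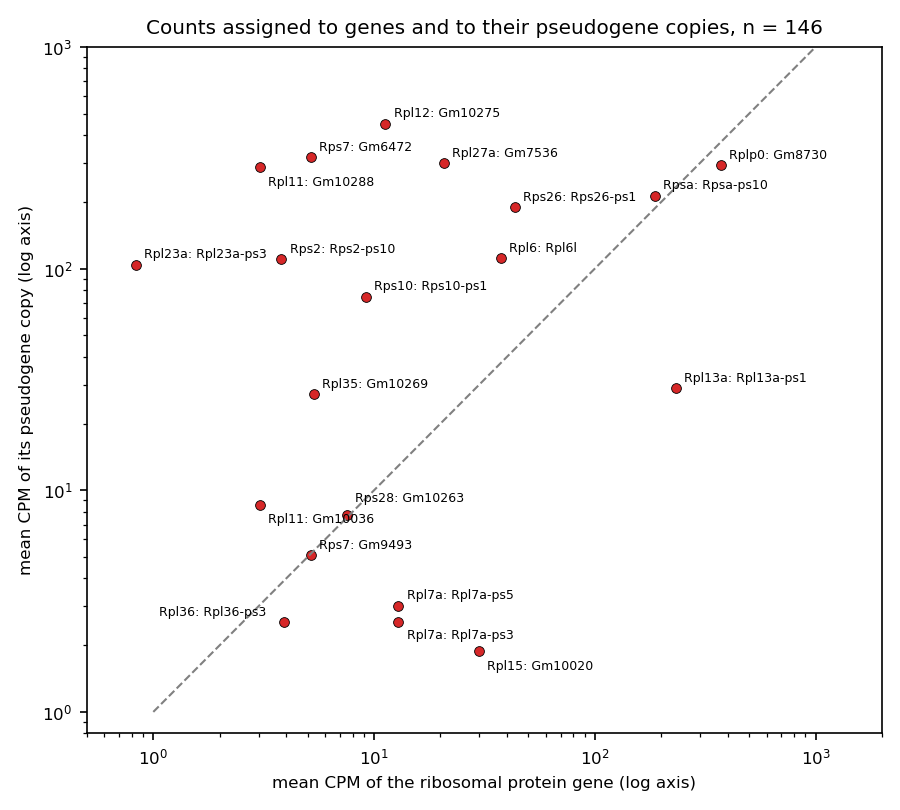
Mean CPM of each pseudogene copy with at least 1 CPM against the mean CPM of the ribosomal protein gene it shares most coding 50-mers with (both axes log, n = 146 libraries, dashed line: equal counts). Gm10275, Gm6472, Gm7536, Gm10288 and Rpl23a-ps3 lie far above the line, and Rpl13a-ps1 lies far below it.

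The typical member varied more between libraries than the typical gene. In 9 of the 76 the highest library was over 10 times the lowest, a count not made over all genes. Among the 9 were Rps2, high in single libraries, and Rps16, high on plate 1 only. The residual SD (of the log2 variance-stabilised value after plate and labelled sex were removed) had a median of 0.200 over the 76 members and 0.160 over all 10893 genes, and 63 members lay above the latter. Among the 31 members with under 20% of their exonic 50-mers in other genes, the smallest residual SDs were those of Rpl8 (0.128), Rpl34 (0.130), Rps29 (0.143) and Rpl12 (0.158). The largest were those of Rpl35a (0.959), Rpl21 (0.877), Rps28 (0.571), Rps26 (0.510), Rps19 (0.403) and Rpl39 (0.318). Variance stabilisation compresses the spread of low genes: from log2 CPM, Rpl34 had a residual SD of 0.220 and Rps29 of 0.282. Counting error made up under 10% of the residual variance of log2 CPM in 48 members and at least 25% in 9, with a highest share of 55.2% in Rpl24.

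In 5 members the libraries fell into separate levels. With libraries ordered by log2 CPM, a gap of at least 0.5 with 5 or more libraries on each side was found in Rpl26, Rps16, Rpl21, Rpl7a and Rpl35a, and in 0.312% of the 10893 genes. Rpl26 (ENSMUSG00000060938, chr11:68901583-68906989), a large subunit protein, had a lowest level of 1.52 CPM, a median of 29.3 and a highest of 81. Its 30 low libraries reached at most 5.32 CPM, and the other 116 libraries began at 19.6 CPM. The low libraries came from all 7 plates and 20 date labels, and 21 of 86 libraries labelled female and 9 of 60 labelled male were among them.

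Rpl21 (chr5:146832890-146837032) had 22 libraries from 0.822 to 1.68 CPM and 124 libraries from 5.16 to 27.5 CPM. Rpl7a (chr2:26910764-26913318) had 46 libraries from 1.24 to 3.09 CPM and 100 from 6.09 to 43.6. Rpl35a (chr16:33056453-33060189) had 81 libraries from 0.477 to 2.46 CPM and 65 from 4.21 to 19.1. The low libraries of each of these 3 genes came from all 7 plates. Of all 146 libraries, 20.5% were low in Rpl26, 31.5% in Rpl7a, 15.1% in Rpl21 and 55.5% in Rpl35a. Among the 30 libraries low in Rpl26, 8 (26.7%) were also low in Rpl7a, 4 (13.3%) in Rpl21 and 14 (46.7%) in Rpl35a, which is 17.4%, 18.2% and 17.3% of the low libraries of those genes. Among the 46 low in Rpl7a, 6 (13%) were also low in Rpl21 and 26 (56.5%) in Rpl35a, or 27.3% and 32.1% of theirs. Rpl21 and Rpl35a had 11 low libraries in common, 50% of the 22 and 13.6% of the 81. Each gene was thus low in some libraries where the others were not, and whether the overlaps differ from independent steps was not tested. Rps28 (chr17:33819027-33824562) ran from 1.19 to 25.2 CPM with a median of 5.86 and no such gap.

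**Figure D3:**
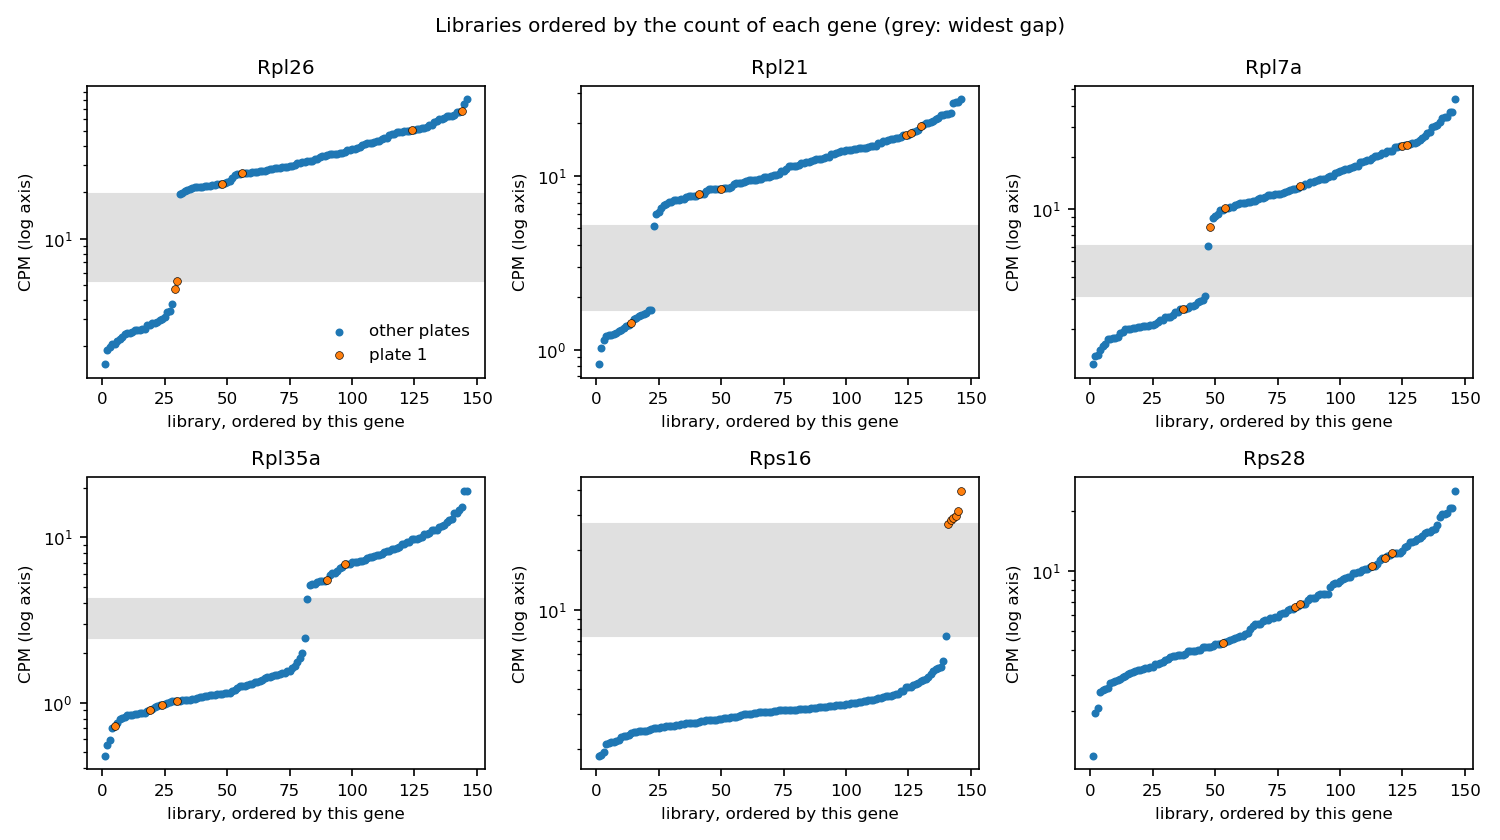
CPM (log axis) of 6 ribosomal protein genes with the 146 libraries ordered by each gene in turn; orange points are the 6 libraries of plate 1 and the grey band is the widest gap. Rpl26, Rpl21, Rpl7a and Rpl35a are split with libraries of plate 1 on both sides, Rps16 is split with plate 1 alone above the gap, and Rps28 has no gap.

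For the 4 genes not split by plate and for Rps28, the gene whose residual log2 CPM followed it most closely was sought over all genes with a mean count of 3 or more, and is given within the libraries below and above the gap. No p is given, since these genes were picked by this correlation. For Rpl7a the 3 closest included its copy Rpl7a-ps3 (0 to 7.42 CPM), with r = -0.72 and rho = -0.76 in the 100 libraries above the gap, r = -0.73 without the 2 farthest libraries, and r = 0.06 and rho = 0.04 in the 46 below. For Rpl21 it was Lnx2, a ubiquitin ligase gene 180 kb away on the same chromosome (8.70 to 27.3 CPM). There r was -0.68 and rho -0.71 in the 124 libraries above the gap, and r was 0.25 in the 22 below. For Rpl26 it was Clec10a, a macrophage lectin gene 1249 kb away, with r = 0.44 and rho = 0.43 in the 116 libraries above and r = 0.34 in the 30 below. For Rpl35a it was Tnk2, a kinase gene 373 kb away, with r = 0.31 above and -0.04 below. Rps28 followed Kank3 with r = -0.77 and rho = -0.76 over all 146 libraries. The annotated spans of Rps28 and Kank3 overlap, and without a stated strand setting reads from the overlap cannot be assigned.

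Plates differed in most members. At an adjusted p under 0.05 by edgeR's quasi-likelihood F test over the 6 plate coefficients, 67 of 76 members differed between plates (88.2%), against 74.8% of all 12060 genes tested. Plate held a median of 23.5% of the variance of members and 15.6% of the variance of all genes, and over 50% in 8 members (10.5%) against 0.643% of all genes. In bulk RNA a difference in the make-up of a culture and a difference in RNA per cell cannot be told apart.

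The 6 members with the smallest p for plate were Rps16, Rps7, Rpl11, Rps27a, Rpl24 and Rpl38. Rps16 (ENSMUSG00000037563, chr7:28350652-28353155), a small subunit protein, had 26.9 to 39.5 CPM in the 6 libraries of plate 1 and 1.85 to 7.36 CPM in the other 140. Rps7 had 15.1 to 30.3 CPM on plate 1, 4.63 to 11.4 on plate 10 and 2.18 to 7.47 on the other plates. Rps27a, a fusion of ubiquitin and a small subunit protein, had 9.17 to 17.8 CPM on plate 1 and 3.25 to 9.75 elsewhere. In Rps16 and Rps7 plate 1 did not overlap the other plates; in Rps27a it did. Adjusted p-values by edgeR were 9.22e-68 for Rps16, 6.62e-49 for Rps7 and 2.61e-30 for Rps27a.

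The plate 1 libraries share their 5 date labels with 29 libraries on other plates. In those 29 libraries Rps16 was at 2.33 to 5.10 CPM and Rps7 at 2.18 to 5.82 CPM, so the high values went with the plate and not with the date label. The plate 1 libraries carry lane label 6, as do some libraries of plates 7, 8 and 10. Plate held 88.0% of the variance of Rps16 and the date labels 17.5%. An abundant member showed no such step: Rpl32 had 228 to 345 CPM on plate 1 and 169 to 396 CPM elsewhere. In both Rps16 and Rps7 every or nearly every coding 50-mer is found in other genes (100% and 95.3%).

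Plate 10 stood apart in other members. Rpl11 averaged 6.70 ± 1.84 CPM (SD, n = 24) there, from 2.25 to 8.81, and plate means elsewhere were 2.20 to 2.46. Rpl24 averaged 2.00 ± 0.625 CPM on plate 10 against plate means of 0.873 to 1.17, and Rpl38 averaged 19.3 ± 4.28 against 10.1 to 12.7. Ranges of plate 10 and the other plates overlapped in all 3 genes. Of the 76 members, 37 had their highest plate mean on plate 10 and 21 on plate 1. The same count was not made over all genes. Many members rise and fall together and plate 1 has only 6 libraries, so these counts are not separate results. The summed share of counts was also highest on plate 10, at 0.825% ± 0.101 (n = 24), and lowest on plate 4, at 0.682% ± 0.0775 (n = 24). What differed between the plates besides the labels was not tested.

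**Figure D4:**
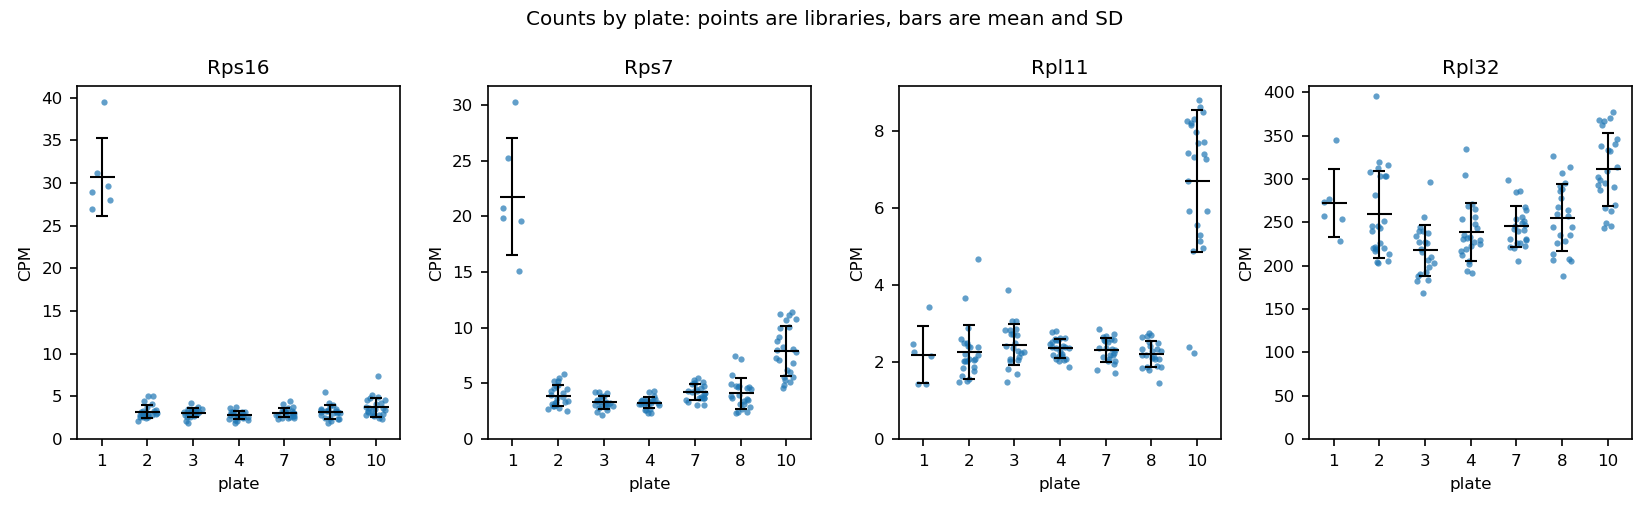
CPM of Rps16, Rps7, Rpl11 and Rpl32 by library plate, with a point for each library and bars for the mean and SD. Rps16 is high on plate 1 (26.9 to 39.5 CPM), Rps7 on plates 1 and 10 and Rpl11 on plate 10, while Rpl32 overlaps on all plates.

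Collection date, tested beyond plate and sex, was associated with 51 of 76 members (67.1%) at an adjusted p under 0.05 by edgeR, near the 69.2% of all genes tested. Those with the smallest p were Rpl3, Rps14, Rpl10a, Rps21, Rps23 and Rps3, with adjusted p-values of 4.94e-08 for Rpl3 and 6.44e-05 for Rps3. Dates held 55.3% of the variance of Rpl3 and plates 14.3%.

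Rps2, a small subunit protein, was high in 3 single libraries. Its level was 55 CPM in female 8 and 49.8 in female 16, both on plate 10, and 41.4 in male 56 on plate 8, from 1680, 1487 and 3696 counts. The other 143 libraries lay between 1.61 and 3.78 CPM. The mean of 3.80 CPM falls to 2.86 ± 0.413 (n = 143) without the 3 libraries. Their counts of the copy Rps2-ps10 (98.7, 77.8 and 57.9 CPM) lay within the range of the others (37 to 202).

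No member passed the threshold between the labelled sexes. With plate as a covariate, 0 of 76 members had an adjusted p under 0.05 by edgeR, against 5.02% of 12060 genes tested. DESeq2 and limma voom also called 0. At an unadjusted p under 0.05, 3 of 76 members passed, against 20% of all genes. Log2 differences of male minus female ran from -0.16 (Rpl35a) to 0.25 (Rpl26), with a median of -0.03 over members and 0.00 over all genes, and 57 of 76 were below 0. The member nearest the threshold was Rpl27, a large subunit protein. It had 5.08 ± 1.16 CPM (SD, n = 86) in libraries labelled female and 4.53 ± 0.795 (n = 60) in those labelled male, and the groups overlapped. Its log2 difference was -0.14 (SE 0.0489, edgeR adjusted p = 0.0752). Without the 6 libraries that go against their label it was -0.15 (SE 0.0504, edgeR adjusted p = 0.0427), where 7.69% of genes tested passed, and without plate 8, which holds 5 of the 6, it was -0.17 (edgeR adjusted p = 0.0470). The X-linked Rps4x, a small subunit protein, had a log2 difference of -0.02 (SE 0.0369).

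Members rose and fell together to very different degrees. Over the 2850 member pairs, Spearman's rho of the residual value had a median of 0.24, with 85.6% of pairs above 0 and 703 pairs above 0.5. These correlations share library composition and depth and carry no p. Pair correlation went with how many counts a member received. The 30 members with a mean of at least 40 CPM had a median pair rho of 0.69, the 46 members below it 0.13, and pairs between the 2 sets 0.25. The 18 members below 40 CPM whose counting error was under 10% of the variance also had a low median, 0.15. Within single plates the median of the 30 members ran from 0.52 to 0.80.

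Among the 30 members the medians of the subunits were close: the median was 0.67 within the 13 of the large subunit, 0.71 within the 17 of the small subunit and 0.69 between them. Among the 5 closest pairs were Rpl22 with Rpl32 (rho 0.94), Rpl7 with Rps4x (0.94), Rpl13a with Rps3 (0.93) and Rpl32 with Rps4x (0.92). Within plates these 4 pairs stayed between 0.71 and 1.00. Of the 5 lowest pairs, 4 held Rps27l, with Rps9 (-0.47), Rpsa (-0.41), Rplp0 (-0.40) and Rps15 (-0.40), and the other was Rpl23 with Rpl27 (-0.40).

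**Figure D5:**
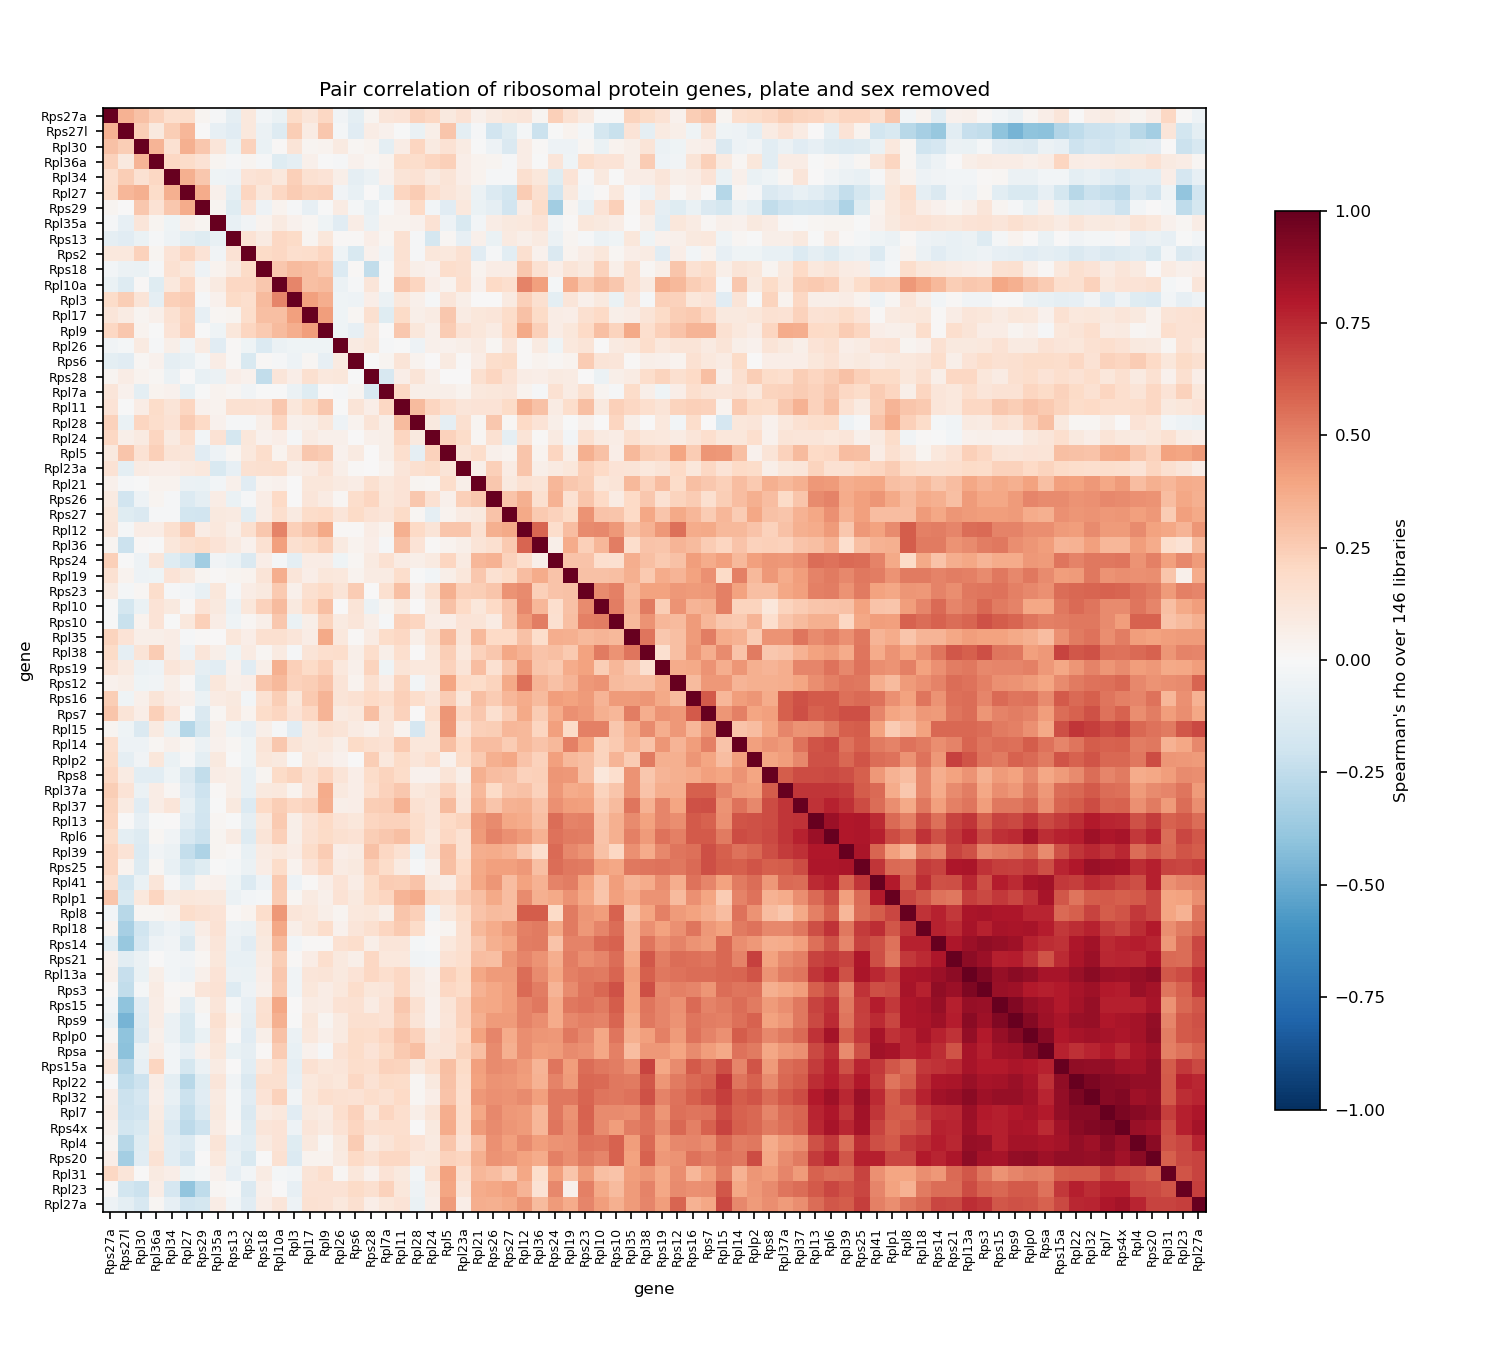
Spearman's rho (colour) between the ribosomal protein genes reported by name over 146 libraries after plate and labelled sex were removed, ordered by average-linkage clustering. The dark block at the lower right holds the abundant members, and Rps27l, Rpl27 and Rps29 form pale blue rows against it.

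A score was formed as the mean standardised residual of the 31 members with under 20% of their exonic 50-mers in other genes. Each member was compared with the score of the others. That cut, used wherever members under 20% shared 50-mers are named, counts exons outside the coding sequence too. Some of the 31 thus still share most coding 50-mers: Rpl39 shared 6.81% of exonic and 86.5% of coding 50-mers. The median r over members was 0.60, and r was over 0.5 in 46 of 76 members (60.5%), against 6.99% of the genes outside the rule. The first principal component of the genes outside the rule held 21.5% of their variance and had an r of 0.69 in size with the score. With that component removed, a setting chosen after seeing the data, 38 members (50%) passed 0.5 with a median r of 0.49, against 1.33% of the genes outside the rule. Among the 30 members of at least 40 CPM, 27 passed 0.5. Among the highest were Rpl32 (r = 0.93), Rpl13a (0.92), Rps4x (0.89) and Rpl7 (0.89). The lowest were Rps27l (r = -0.17), Rps2 (-0.14, or -0.05 without its 3 high libraries), Rpl27 (-0.12), Rps29 (-0.09), Rps13 (-0.07) and Rpl30 (-0.07). With the component removed, r changed sign in 4 of these 6, to 0.44 for Rps27l, 0.47 for Rpl27, 0.16 for Rps29 and 0.32 for Rpl30, while Rps2 was at -0.07 and Rps13 at -0.18. The libraries had 55.1 to 109 CPM of Rps27l, with counting error at 2.11% of its variance. Its expression is known to be raised by p53, and whether counts or p53 bear on its r was not tested. The stepped members stood near 0, with r = -0.01 for Rpl26, 0.02 for Rpl35a and 0.14 for Rpl7a, apart from Rpl21 at 0.33 and Rps16 at 0.65 once plate was removed. For Rps7 r was 0.61.

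The start of the gene is where the TOP tract lies, so the windows from 20 bases before to 10 bases after the RefSeq start (GRCm38.p6) are shown for members of high and low r, with pyrimidine runs of 5 or more in capitals. Rps9 (chr7:3704021-3704050, plus strand), Rps15a (chr7:118116138-118116167, minus) and Rpl4 (chr9:64173367-64173396, plus) had r over 0.8, as did Rps3 (chr7:99483700-99483729, minus), which has no such run in the window. Rps27l (chr9:66946066-66946095, plus) and Rpl27 (chr11:101442225-101442254, plus) had r below 0, and Rps27l has a second start (chr9:66946393-66946422, plus):
Rps9: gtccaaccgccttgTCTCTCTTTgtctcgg
Rps15a: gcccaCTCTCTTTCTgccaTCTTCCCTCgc
Rpl4: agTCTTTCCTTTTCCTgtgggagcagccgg
Rps3: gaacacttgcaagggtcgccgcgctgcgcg
Rps27l: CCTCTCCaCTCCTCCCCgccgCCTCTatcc
Rps27l, second start: agctcaccatgggcttcagggtcactaacg
Rpl27: ccggaacgctctgTTCCTgtctgctgctcg
Promoter windows were available here for 57 members, 68 windows in all. A run of at least 8 pyrimidines on the sense strand within 20 bases of the start was present in 30 of the 68 (44.1%) and in 16.0% of all 32851 windows. Such a run need not cover the start: those of Rpl4 and of the first start of Rps27l end before it. A run of at least 5 that covers the start, where a TOP tract would begin, was present in 20 of the 68 windows (29.4%) and in 10.1% of all. In the windows of 300 bases (250 before to 50 after the start), both strands, ACTTCCG was present in 32.4% of member windows and 6.42% of all. AAGATGGC was present in 10.3% of member windows and 2.75% of all, and TATAAA in 8.82% and 13.6%. The run of at least 8 within 20 bases was present in 6 of the 13 members with r of at least 0.8 and a window. It was present in 1 (Rps27l, at the first of its starts) of the 4 with a window among the 6 of lowest r. The windows shown are thus not typical of high r, since 3 of the 4 such members shown hold a run of that length. These are matches of letters and not measured sites, and RefSeq starts may lie some bases from the start used in these cells.

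Genes outside the rule were ranked by r with the score. Among those with under 20% shared 50-mers, the closest was Eef1b2, a subunit of the elongation factor exchange complex (r = 0.90, rho = 0.90, within plates 0.75 to 0.96). Next were Rack1, a scaffold protein bound to the small subunit (r = 0.88), Zfas1, a noncoding host gene of small nucleolar RNAs (0.83), and Tmem258 (0.83). They were followed by the initiation factor subunit Eif3h (0.82), the proteasome subunit Psmb1 (0.82) and Imp3 (0.81), which acts in small subunit assembly. Ndufa6 (0.81), Eif3e (0.80) and Cox7a2l (0.79) completed the 10 closest. The most opposed were the amino acid transporter gene Slc7a8 (r = -0.82, rho = -0.81, within plates -0.95 to -0.54), Cyfip2 (-0.77), Elmo1 (-0.76), Kif24 (-0.75), Ipo9 (-0.75) and Lclat1 (-0.75). Without the 2 libraries farthest from the median score, Eef1b2 had r = 0.89 and Slc7a8 r = -0.82. With the first component of other genes removed, r was 0.83 for Eef1b2 and 0.56 to 0.78 for the other 9 of the closest, and -0.64 for Slc7a8 and -0.48 to -0.38 for the other 5 of the most opposed. These genes were picked by r, so no test is given.

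Lists of related genes were set beside the score, with a median r of -0.01 over genes outside the rule, of which 6.99% were over 0.5 and 9.23% under -0.5. Each list is also given with the first component of other genes removed, where the median over genes outside the rule was -0.02. The lists are among the genes that component was computed from. They also overlap: Eef1a1, Eef1b2, Eef2, Eif3e, Eif3h and Eif4b are TOP messages and also elongation or initiation factors. Counts over 0.5 in these lists are therefore not separate results. The 20 non-ribosomal TOP messages had a median r of 0.63, with 13 over 0.5, among them the elongation factor Eef1a1 (0.80); with the component removed the median was 0.50 and 10 passed. Of the 7 other ribosomal proteins, 3 passed 0.5 and the median was 0.42, with Rps3a1 at 0.69, and with the component removed 3 passed and the median was 0.49. The 7 elongation factors had a median of 0.15, with Eef2 at 0.63 and Eif5a at -0.48. Their median was 0.48 with the component removed, where Eef2 was at 0.29 and Eif5a changed sign, to 0.30. The 28 initiation factors had a median of 0.13, with 8 over 0.5, including Eif4b (0.75) and Eif3m (0.74), and with the component removed the median was 0.23, with 5 over 0.5.

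For 34 ribosome biogenesis factors the median was -0.02 and 4 passed 0.5, Imp3 and Ubtf (0.67), a factor of ribosomal DNA transcription, among them; with the component removed the median was 0.29, 4 passed and Ubtf was at 0.27. The 77 mitochondrial ribosomal proteins had a median of -0.11, with 2 over 0.5 and 2 under -0.5 (Mrpl37 -0.53 and Mrpl51 -0.52), below the shares of all genes in both directions. Their median was 0.32 with the component removed, with 11 over 0.5 (14.3%, against 1.33% of genes outside the rule), and Mrpl37 and Mrpl51 changed sign, to 0.16 and 0.09. Among 13 genes of growth signalling to the ribosome the median was 0.09. Tsc2, which restrains mTOR, was at -0.72 (within plates -0.83 to -0.55), Mtor was at -0.57 and Eif4ebp1, a repressor of translation held in check by mTOR, at 0.37. With the component removed the list's median was -0.08, Tsc2 was at -0.45, Mtor at -0.44 and Eif4ebp1 at 0.13. The 12 p53 targets had a median of -0.32, with Tnfrsf10b at -0.59 and Zmat3 at -0.58, but Btg2 was at 0.52, Mdm2 at 0.33, Sesn2 at 0.27 and Trp53inp1 at 0.24. After removal of the component the median was -0.13, with Tnfrsf10b at -0.08, Zmat3 at -0.31 and Btg2 at 0.13.

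Markers of cell state and of other cells were also set beside the score. The 15 DNA replication genes had a median r of -0.60 and 11 were under -0.5, with Pole at -0.73 and Mcm2 at -0.63; their mean had r from -0.91 to 0.17 within plates. With the component removed the median of this list was 0.08 and none was under -0.5, with Pole at -0.32 and Mcm2 changed in sign, to 0.08. The 15 mitosis genes had a median of -0.33 (within plates -0.85 to 0.13 for their mean), and -0.06 with the component removed. The 9 granulocyte precursor markers of the expression table had a median r of 0.39 (Ctsg 0.48, Prtn3 0.45), from -0.34 to 0.67 within plates for their mean, and a median of 0.13 with the component removed. Among 11 macrophage markers the median was 0.15, with Itgam at 0.65, Cd14 at 0.64, Spi1 at 0.59 and Mertk at -0.51, and with the component removed these were 0.11, 0.37, 0.31 and -0.20. Of the 8 lymphocyte markers only Cd79b, a B cell marker at a mean of 2.40 CPM, was in the variance-stabilised table, and its r was 0.51. Of the 6 dendritic cell markers only Itgax and Flt3 were in that table, with r of 0.54 and 0.51. With the component removed Cd79b was at 0.10, Flt3 at 0.03 and Itgax changed sign, to -0.04.

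Technical measures were compared in the same way. The score had r = -0.07 with log2 library total and r = -0.35 with the slope of expression on transcript length in each library, from -0.82 to -0.01 within plates. With the first component of other genes removed, the median pair rho of the 30 members of at least 40 CPM was 0.52, and with the length slope removed it was 0.64. The part of culture make-up, cell cycle state and RNA quality in the shared variation was not tested.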

How the data were processed

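The submitters' processing notes name FastQC, TopHat2 2.0.11, HTSeq 0.6.1, DESeq2 and the build GRCm38, without saying what each was used for. The annotation release and counting mode are not given in the sources used here. The deposited counts are whole numbers of reads per gene. The authors also deposited log2 variance-stabilised values for 10893 genes.

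From the counts, CPM (of the library total) and RPKM (with GENCODE M21 exon union length) were computed here. Tests used edgeR 4.0.16 quasi-likelihood on the counts (R 4.3.3), with TMM scaling, edgeR's filter on low counts by labelled sex (12060 genes kept) and Benjamini-Hochberg adjustment over all genes. Plate was the covariate for sex, sex for plate, and both for date. limma 3.58.1 and DESeq2 1.42.0 were alternatives. On simulated counts for the sex comparison (12060 genes), a log2 change of 0.25 was recovered in 93 of 100 changed genes. The same change was recovered in 46 of 100 for plate and in 0 of 100 for date, and a change of 0.5 in 98 for sex, 99 for plate and 21 for date. Co-variation was measured on the log2 values after least-squares removal of plate and sex. Shared 50-mers were counted over GENCODE M21 transcripts (1 in 8 sampled for genes outside the rule). Symbols matched 21899 of 22721 gene IDs. Sequences came from GENCODE M21 transcripts and RefSeq promoters.

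The members and lists were chosen with earlier results of these data known. Genes named with values were set by rule: Rpl26, Rpl7a, Rps16, Rps7, Rps27 and Rps27l, the 8 highest and 8 lowest by RPKM, and the extremes of spread, correlation, plate and date. Lists gave up to 4 genes by size of r. Rps2, Rpl12 and Rpl27a, other members with high libraries or copies, and neighbours of stepped members were added after their values were seen. Erythroid, stromal and Y-linked lists had no gene in the log2 table. A few members count in the totals and medians but are not reported here by name or drawn by name in the figures.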

Additional observations from a re-analysis of the deposited data

Results flagged for a closer look

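Within the 6 libraries of plate 1, Rps16 was at 39.5 CPM in male 7, apart from the other 5 libraries at 26.9 to 31.1 CPM by more than a gap test for small groups (Dixon, 95%) allows. Chance flags about 1 in 20 such groups. All 6 lay above every library of the other plates.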

How the results depend on the processing

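No paired analysis was possible because the labels give no replicate numbers shared between the sexes; the numbers used here only name libraries. Members called between the labelled sexes were 1 (Rpl27) without the libraries against their label and 1 without plate 8, and 0 under the other alternatives run (DESeq2, limma voom, RLE scaling, no filter, lane or date as covariate and the other plates left out). Counts for plate (67 to 68) and date (43 to 66) stayed within 1.5 times of the 67 and 51 reported. The median pair rho of 0.24 was 0.34 with members under 20% shared 50-mers, and, chosen after seeing the data, 0.69 with members of at least 40 CPM, 0.64 with those and the length slope removed and 0.52 with those and the first component removed. Within plates it was 0.31 on plate 1, 0.33 on plate 2 and 0.39 on plate 10, and 0.18 to 0.30 on the others. The median level of 10.5 RPKM was 14.2 with the longest transcript and 17.6 with the coding transcript as length. The share of counts of 0.728% was 0.452% for members under 20% shared 50-mers, and the median residual SD of 0.200 was 0.241 from log2 TMM CPM; the causes were not tested beyond these changes of genes, length and scale. With the first component of other genes removed, 11 of 70 values of r with the score changed sign: Rps27l (0.44), Rpl27 (0.47), Rps29 (0.16), Rpl30 (0.32), Eif5a (0.30), Eif4ebp2 (-0.0762), Itgax (-0.036), Mcm2 (0.0758), Mcm5 (0.0911), Mrpl37 (0.16) and Mrpl51 (0.0913). Another 45 kept their sign but moved by more than the SD between plates, and 14 stayed within it; the cause was not tested. Under the length slope or date 1 and 2 of the 70 moved. With the coding transcript as length 18 of 21 levels moved by more than 1 SD, and with the longest transcript 14. Depth limits the lowest members, such as Rps27 with 5 counts in its lowest library, and intervals of counting were not drawn since reads are not independent molecules.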

Other observations

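Rps27l, the member with the lowest r with the score before the first component was removed, was set beside the p53 target list, chosen after its pattern was seen. Its residual value had r = 0.41 and rho = 0.44 with the mean of the 12 p53 targets over 146 libraries, from 0.21 to 0.71 within plates. These values were not computed with the first component of other genes removed, which changed the sign of r between Rps27l and the score. The closest were Ccng1 (r = 0.53), Bax (0.52), Tnfrsf10b (0.52) and Zmat3 (0.49), and Cdkn1a, a cell cycle inhibitor, was at 0.40. Not all targets followed: Btg2 was at -0.35, Sesn2 at -0.31 and Mdm2, the p53 ubiquitin ligase, at -0.12. The same libraries gave both sides and the list was picked for this gene, so no test is given.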
